A study of Mus musculus with 11 samples.

Results

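The 42 genes described here build the contractile and calcium-handling apparatus of mature skeletal muscle fibers, and they were chosen by name as sarcomere proteins, calcium-handling proteins and enzymes of the muscle fiber. The deposited table holds 40 of them among 20640 gene symbols, and Tnni1 and Tnni2 were not analysed here. They were measured in 11 bulk RNA-seq libraries, each made from cells of mouse limb muscle sorted by flow cytometry as muscle stem cells, that is YFP+ cells without the Sca-1, CD31 and CD45 surface markers. All mice carried Pax7-CreERT2 and Rosa-YFP and received tamoxifen by mouth at 240 mg per kg of body weight on 5 days, at 12 to 14 weeks of age. The Cre is driven by Pax7, the transcription factor that marks muscle stem cells, and the YFP label passes on to any descendant of a labelled cell. The middle-aged group holds 3 libraries from mice of 10 to 14 months in the sample labels, where the extraction protocol gives 12 to 14 months, and its titles name no VCAM1 gate. Geriatric cells, from mice over 28 months old, were divided by surface VCAM1 (an adhesion molecule used to sort muscle stem cells) into VCAM1-high with 3 libraries, VCAM1-low with 2 and VCAM1-negative with 3. The gate names follow the titles, while the series text uses the names mid and low or negative. Any comparison with middle-aged cells changes age, gate and time since tamoxifen together. The labels do not state whether replicates came from separate animals, and p-values here reflect the spread between these samples alone, which may be technical.

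In a muscle fiber, thin filaments of actin, tropomyosin and troponin slide along thick filaments of myosin, and both are anchored and aligned through the Z-disc. Calcium released from the sarcoplasmic reticulum binds troponin C and starts contraction, and a calcium pump and binding proteins then lower it again. Fast and slow fibers use different genes for many of these proteins, and a quiescent muscle stem cell lies beside the fiber without a contractile apparatus of its own.

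Values are RPKM, reads scaled by gene length and by library size, so levels of different genes can be set side by side per length. Depth estimated from the steps of the low values ran from 19.8 to 29.8 Mreads per library, which makes 1 read in a gene of 1 kb at most 0.0504 RPKM. Between 10395 and 11171 genes reached 1 RPKM in a library. The 15 muscle stem cell markers checked, Pax7 and Vcam1 among them, all reached 1 RPKM in each of the 11 libraries. Vcam1 itself read 122, 70.4 and 48.6 RPKM in the VCAM1-negative libraries, and between 115 and 418 in the other 8.

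Some libraries stood apart within their group. VCAM1-high replicate 3 had the most macrophage and neutrophil marker RNA, middle-aged replicate 3 the most endothelial marker RNA, and VCAM1-negative replicate 1 far less RNA of the muscle fiber genes than replicates 2 and 3, so counts are given with and without libraries below.

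The starts of 5 genes are shown as the 250 bases upstream of the transcription start. They were chosen because Acta1, Ckm and Tnnc2 were among the members with the largest differences between groups, Tnnc1 is the slow counterpart of Tnnc2, and Des did not follow the other members. The sequences come from RefSeq on GRCm38.p6, matched by symbol, and the deposited values were made on another build. Capitals mark each CANNTG, the E-box letters that muscle transcription factors such as MyoD can bind, and each CArG box, the letters that serum response factor can bind.
Acta1 (chr8:123894776-123895025, minus strand): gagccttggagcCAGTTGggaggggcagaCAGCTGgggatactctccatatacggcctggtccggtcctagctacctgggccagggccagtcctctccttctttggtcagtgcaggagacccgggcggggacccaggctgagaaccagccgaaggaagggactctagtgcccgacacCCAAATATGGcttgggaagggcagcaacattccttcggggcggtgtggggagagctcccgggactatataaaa
Ckm (chr7:19410844-19411093, plus strand): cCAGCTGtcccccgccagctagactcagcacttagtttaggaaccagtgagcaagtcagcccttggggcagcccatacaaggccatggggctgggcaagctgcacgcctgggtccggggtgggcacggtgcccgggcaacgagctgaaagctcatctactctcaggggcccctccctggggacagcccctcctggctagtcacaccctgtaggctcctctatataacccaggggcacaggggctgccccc
Tnnc2 (chr2:164779735-164779984, minus strand): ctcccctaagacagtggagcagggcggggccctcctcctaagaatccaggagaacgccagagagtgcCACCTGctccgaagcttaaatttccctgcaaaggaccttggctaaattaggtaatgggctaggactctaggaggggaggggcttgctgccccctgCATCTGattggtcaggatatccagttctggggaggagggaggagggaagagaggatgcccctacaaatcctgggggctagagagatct
Tnnc1 (chr14:31208062-31208311, plus strand): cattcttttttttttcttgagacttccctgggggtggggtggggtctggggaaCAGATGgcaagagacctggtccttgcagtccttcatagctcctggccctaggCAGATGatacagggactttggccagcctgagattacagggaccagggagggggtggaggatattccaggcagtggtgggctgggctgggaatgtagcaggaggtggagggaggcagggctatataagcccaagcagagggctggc
Des (chr1:75360042-75360291, plus strand): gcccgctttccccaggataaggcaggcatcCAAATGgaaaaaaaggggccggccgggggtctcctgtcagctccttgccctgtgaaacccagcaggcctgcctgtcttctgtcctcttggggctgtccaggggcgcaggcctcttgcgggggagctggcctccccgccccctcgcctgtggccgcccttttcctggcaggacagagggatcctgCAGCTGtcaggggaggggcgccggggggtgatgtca
Acta1, Tnnc2, Tnnc1 and Des each held 2 CANNTG in this window and Ckm held 1. A CArG box stood in the Acta1 window, with its first base 73 bases before the start. Of the 33 listed genes with an entry in the promoter table, 29 held CANNTG (87.9%), against 69.3% of 27025 genes. The CArG box stood in 4 of the 33 (12.1%), against 1.62% of all genes, and CTANNNNTAG, a looser form of the letters that MEF2 factors bind, in 4 of the 33 (12.1%), against 3.70%. Each of these motifs reads the same on both strands. The matches are letters in a window, not measured binding sites.

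The muscle fiber genes were highest in the VCAM1-negative libraries. Summed over the 40 genes, the level was 1479, 10399 and 8467 RPKM in the VCAM1-negative libraries, against 1063, 849.8 and 1233 in the middle-aged, 728, 722 and 1189.7 in the VCAM1-high and 660.4 and 746 in the VCAM1-low ones. VCAM1-negative replicates 2 and 3 stood far above the rest, and replicate 1 stood above all 8 libraries of the other groups by a smaller margin. In bulk samples such as these, fewer cells of a type and less RNA per cell cannot be told apart. Des, the intermediate filament gene that stem cells also express, made up 43.3% to 70.0% of the sum in the 8 libraries outside VCAM1-negative. Without Des the sums were 1053.5, 9716 and 7702 RPKM in the VCAM1-negative libraries, against 494, 415 and 699.8 in the middle-aged, 241, 284 and 494 in the VCAM1-high and 198 and 310.0 in the VCAM1-low ones.

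**Figure D1:**
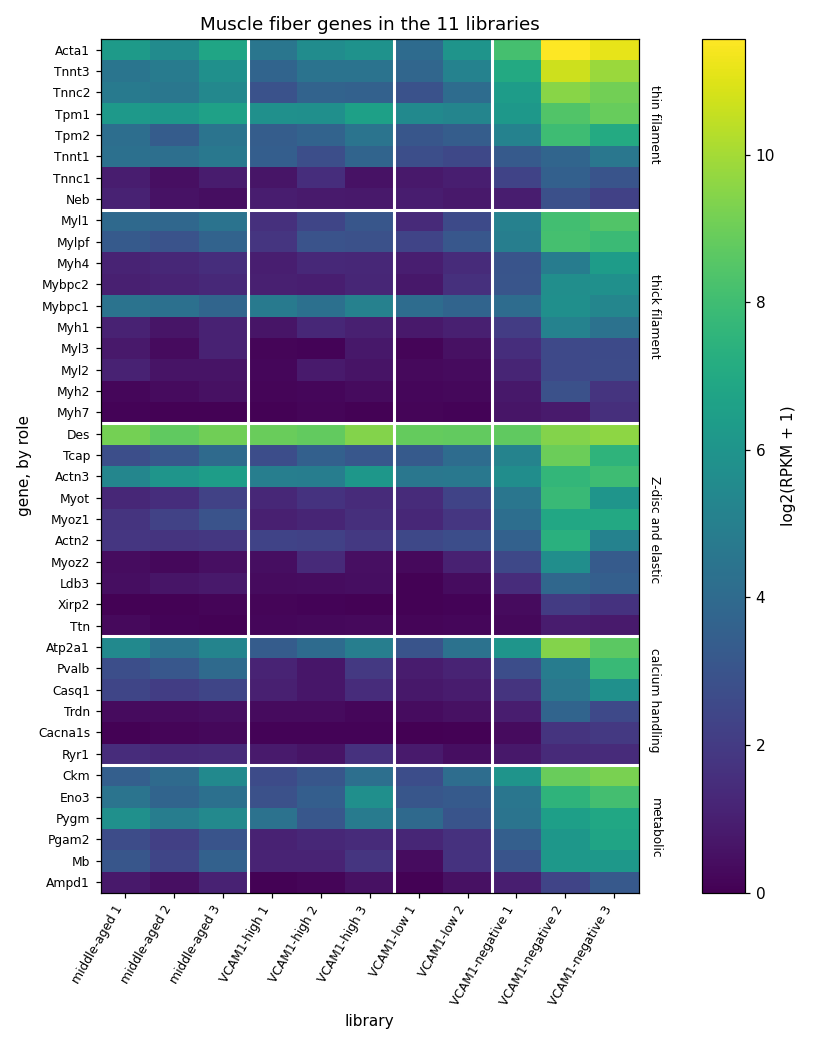
Level of each of the 40 genes (rows, grouped by role) in each of the 11 libraries (columns) as log2(RPKM + 1), drawn from dark for low to yellow for high. The columns of VCAM1-negative replicates 2 and 3 are brighter than the rest in most rows, replicate 1 lies between, and Des is bright in every column.

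Of the 40 genes, 38 passed the filter of 1 RPKM in at least 2 libraries, and Ttn and Myh7 did not. For 10 of the 38 the filter was passed only with the VCAM1-negative libraries, so a difference was built into their inclusion, and calls are also counted over the other 28. These 10 were Tnnc1, Neb, Myl2, Myl3, Myh2, Xirp2, Ldb3, Cacna1s, Trdn and Ampd1. The counts by role, and of genes whose libraries do not overlap between groups, include them. Against middle-aged cells, 26 of the 38 rose in VCAM1-negative cells at adjusted p under 0.05 and none fell, in limma's moderated test over all 11568 genes. Among all genes tested, 7.06% rose and 7.38% fell in this comparison. Over the 28 members that pass the filter without the VCAM1-negative libraries, 17 rose, against 6.78% of all genes that pass it that way. Without any filter 17 members rose, and the share of all genes in that fit is not given. The median difference of the 38 was 2.27 on the log2(RPKM + 1) scale, against -0.02 over all genes. By role, 6 of 8 thin-filament genes, 8 of 9 thick-filament genes, 7 of 9 Z-disc and elastic genes, 3 of 6 calcium-handling genes and 2 of 6 metabolic genes rose. Every VCAM1-negative library lay above every middle-aged library in 26 of the 38, against 18.7% of all genes.

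The count against middle-aged cells rested on single libraries. It ranged from 10 without VCAM1-negative replicate 2 to 34 without VCAM1-negative replicate 1, and was 14 without middle-aged replicate 1, 16 without middle-aged replicate 2 and 14 without VCAM1-negative replicate 3. With the 3 libraries numbered 3 left out together it was 4. For fits with libraries left out, here and below, the share of all genes called is not given. In each of the 11 omissions of 1 library, 10 of the 26 passed: Actn2, Mylpf, Tnnt3, Tnnc1, Myh4, Myoz1, Myoz2, Myot, Tcap and Mybpc2.

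Against VCAM1-high cells of the same age, 0 of the 38 passed in the model without a replicate block, where 0% of all genes passed. The lowest adjusted p of a member was 0.0501, 34 of the 38 had an unadjusted p under 0.05 (755 of all 11568 genes did), and all 38 differences were positive with a median of 2.87, against -0.07 over all genes. Libraries of the same number deviated together from their group means in the geriatric gates, so the number was also fitted as a block in the 8 geriatric libraries. In that fit 27 of the 38 rose and none fell, while 0.908% of all genes rose and 3.26% fell. Over the 28 members that pass the filter without the VCAM1-negative libraries, 22 rose, against 0.740% of all genes that pass it that way. By role, 5 of 8 thin-filament genes, 7 of 9 thick-filament genes, 7 of 9 Z-disc and elastic genes, 3 of 6 calcium-handling genes and 5 of 6 metabolic genes rose. With the block fitted to all 11 libraries 19 rose, while 0.277% of all genes rose. Every VCAM1-negative library lay above every VCAM1-high library in 30 of the 38, against 3.28% of all genes.

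The blocked count also moved with single libraries. It was 35 without VCAM1-negative replicate 1, 13 without replicate 2 and 20 without replicate 3 of that gate. It was 4 without VCAM1-high replicate 2, and 9 without either VCAM1-low library. Acta1, Ckm, Myl1 and Tnnc2 passed in each of the 8 omissions. Without VCAM1-negative replicate 1 and without a block, the count rose from 0 to 34.

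Within a replicate number, the ratio of VCAM1-negative to VCAM1-high RPKM was above 1 in 36 of the 40 genes for number 1, in 40 of 40 for number 2 and in 39 of 40 for number 3. Of the 11568 genes tested, 4435, 4261 and 5468 were higher in VCAM1-negative for numbers 1, 2 and 3. The median ratio of the 40 genes was 6.23 for number 1, 38.5 for number 2 and 23.0 for number 3. With 1 RPKM added to both values, which weighs down ratios of low levels, the medians over the 38 tested genes were 2.81, 14.5 and 7.78. Over all genes tested the medians, also with 1 RPKM added to both values, were 0.930, 0.938 and 0.981. The lowest ratio was 0.615 for Mybpc1 in number 1, 1.56 for Des in number 2 and 0.799 for Ryr1 in number 3.

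Both comparisons use the same 3 VCAM1-negative libraries. Of the 38 tested genes, 21 passed in both, 5 passed against middle-aged cells alone (Myh2, Neb, Cacna1s, Trdn and Xirp2), 6 passed against VCAM1-high with the block alone (Actn3, Pvalb, Casq1, Eno3, Ampd1 and Mb), and 6 passed in neither (Tnnt1, Mybpc1, Ryr1, Pygm, Tpm1 and Des). All 5 that passed against middle-aged alone, and Ampd1, met the filter only with the VCAM1-negative libraries. In the results by role that follow, differences are on the log2(RPKM + 1) scale with the standard error of the limma fit. This scale understates the change of genes with low levels. The difference from VCAM1-high comes from the fit with the replicate block in the 8 geriatric libraries, and the difference from middle-aged from the model without a block.

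**Figure D2:**
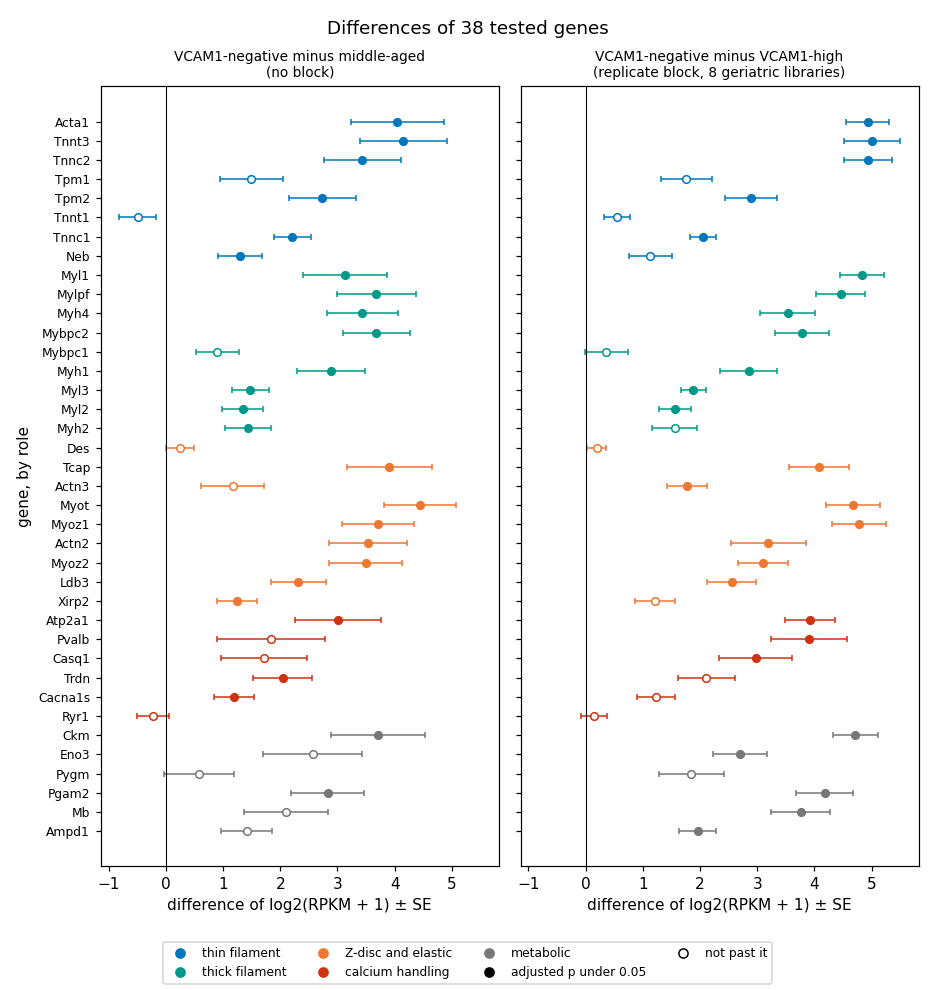
Difference of log2(RPKM + 1) with its standard error for the 38 tested genes, VCAM1-negative minus middle-aged on the left and minus VCAM1-high (replicate block) on the right. Filled points passed at adjusted p under 0.05, and most points lie to the right of 0 in both panels, with Tnnt1, Ryr1, Mybpc1 and Des among those near it.

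Among the thin-filament genes, Acta1, which encodes skeletal muscle alpha-actin, read 280.4, 3040.2 and 2254 RPKM in the VCAM1-negative libraries, against 79.2, 47.2 and 109 in the middle-aged, 22.3, 48.4 and 58.3 in the VCAM1-high and 15.4 and 63.2 in the VCAM1-low ones. All 3 VCAM1-negative libraries exceeded every other library. Acta1 was the most abundant member in each VCAM1-negative library but replicate 1, where Des was higher. Its difference was 4.93 ± 0.38 (adjusted p = 0.00449) from VCAM1-high and 4.05 ± 0.81 (adjusted p = 0.0141) from middle-aged. Actin genes are close in sequence, and reads shared between them could be split by the counting.

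Tnnt3, the fast troponin T that ties the troponin complex to tropomyosin, read 129.7, 1651 and 923 RPKM in the VCAM1-negative libraries, against 21.8, 26.8 and 55.5 in the middle-aged, 12.4, 20.1 and 20.2 in the VCAM1-high and 13.3 and 33.8 in the VCAM1-low ones. The VCAM1-negative values again lay above all others. Its differences were 5.01 ± 0.50 (adjusted p = 0.00734) from VCAM1-high and 4.15 ± 0.76 (adjusted p = 0.0104) from middle-aged. Tnnc2, the calcium-binding troponin C of fast fibers, read 81.9, 723 and 545 RPKM in the VCAM1-negative libraries, against 25.2, 22.7 and 41.0 in the middle-aged, 6.49, 11.8 and 10.99 in the VCAM1-high and 6.49 and 16.0 in the VCAM1-low ones. Again VCAM1-negative lay above all other libraries, and the middle-aged libraries exceeded those of the other 2 geriatric gates. It differed by 4.93 ± 0.41 (adjusted p = 0.00458) from VCAM1-high and by 3.43 ± 0.67 (adjusted p = 0.0129) from middle-aged. Exons of Tnnc2 overlap those of Ube2c on the opposite strand, and the sources used here do not say whether reads were counted by strand.

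Tpm2, a tropomyosin that covers the myosin-binding sites of actin at rest, read 34.2, 250.3 and 135 RPKM in the VCAM1-negative libraries, against 17.1, 9.35 and 20.8 in the middle-aged, 9.49, 11.9 and 20.8 in the VCAM1-high and 7.66 and 9.62 in the VCAM1-low ones. The VCAM1-negative values exceeded all others, with replicate 1 closest to them. Its differences were 2.89 ± 0.45 (adjusted p = 0.0219) from VCAM1-high and 2.73 ± 0.59 (adjusted p = 0.0175) from middle-aged. Tpm1, a tropomyosin gene used in many cell types, read 70.5, 339.9 and 467 RPKM in the VCAM1-negative libraries, against 73.2, 68.0 and 98.5 in the middle-aged, 55.0, 53.7 and 94.9 in the VCAM1-high and 43.7 and 37.2 in the VCAM1-low ones. VCAM1-negative replicate 1 lay inside the range of the other groups, and replicates 2 and 3 lay above it. Tpm1 did not pass, with 1.76 ± 0.44 (adjusted p = 0.0702) from VCAM1-high and 1.495 ± 0.55 (adjusted p = 0.0882) from middle-aged.

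Tnnt1, the slow troponin T, had another order. It read 8.77, 12.6 and 23.0 RPKM in the VCAM1-negative libraries, against 18.1, 17.7 and 24.0 in the middle-aged, 10.1, 5.93 and 12.2 in the VCAM1-high and 5.78 and 4.68 in the VCAM1-low ones. Middle-aged libraries were all above VCAM1-high and VCAM1-low, and VCAM1-negative libraries spread across the range of the rest. The difference of VCAM1-negative was 0.55 ± 0.22 (adjusted p = 0.194) from VCAM1-high and -0.49 ± 0.33 (adjusted p = 0.307) from middle-aged. Tnnc1, the troponin C of slow and heart muscle, ran from 0.373 to 1.83 RPKM in the 8 libraries outside VCAM1-negative and read 3.96, 10.8 and 7.06 RPKM inside it. VCAM1-negative lay above all other libraries, and it rose by 2.05 ± 0.22 (adjusted p = 0.0110) over VCAM1-high and by 2.21 ± 0.33 (adjusted p = 0.00523) over middle-aged. Neb, the giant nebulin that runs along the thin filament, read 0.341 to 1.14 RPKM outside VCAM1-negative and 0.912, 5.99 and 3.67 RPKM inside. Its replicate 1 lay in the range of the other groups, and it passed against middle-aged (1.30 ± 0.39, adjusted p = 0.0467) and not against VCAM1-high (1.13 ± 0.37, adjusted p = 0.130).

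**Figure D3:**
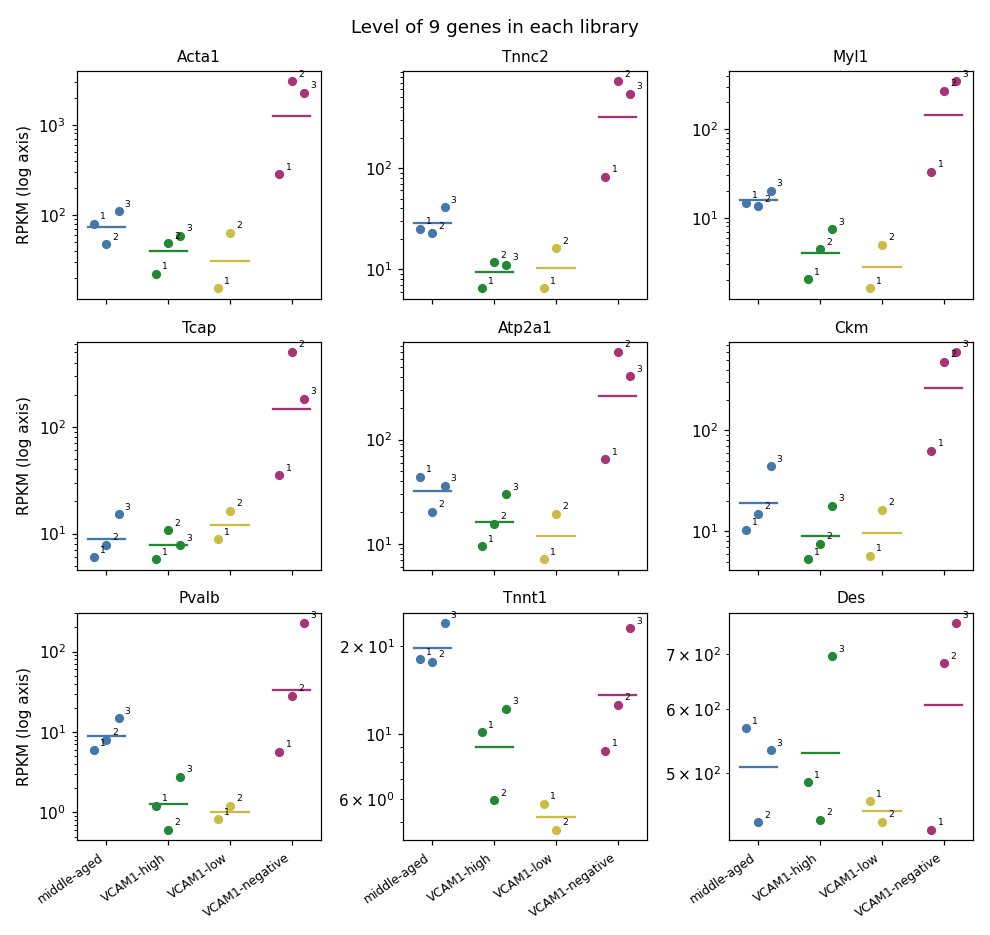
RPKM on a log axis for 9 genes in each library, with points numbered by replicate and a line at each group's geometric mean. Acta1, Tnnc2, Tcap and Ckm lie higher in all VCAM1-negative libraries than in any other, replicate 1 is the lowest of the gate in all 9 panels, and Des and Tnnt1 overlap between groups.

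In the thick filament the myosin heavy chains are the motors that pull on actin, and Myh4 encodes the fastest isoform. Myh4 read 7.12, 27.6 and 82.8 RPKM in the VCAM1-negative libraries, against 1.20, 1.47 and 1.82 in the middle-aged, 0.990, 1.55 and 1.47 in the VCAM1-high and 0.965 and 1.70 in the VCAM1-low ones. Myh1, the heavy chain of type IIx fibers, read 3.13, 33.7 and 19.8 RPKM in the VCAM1-negative libraries, against 1.15, 0.579 and 1.16 in the middle-aged, 0.593, 1.48 and 0.993 in the VCAM1-high and 0.749 and 0.999 in the VCAM1-low ones. In both genes every VCAM1-negative library exceeded every other library, and the highest was replicate 3 for Myh4 and replicate 2 for Myh1. Myh4 differed by 3.53 ± 0.48 (adjusted p = 0.0168) from VCAM1-high and by 3.44 ± 0.61 (adjusted p = 0.00975) from middle-aged, and Myh1 by 2.85 ± 0.50 (adjusted p = 0.0293) and 2.89 ± 0.59 (adjusted p = 0.0152). Myh2, of type IIa fibers, ran from 0.103 to 0.440 RPKM outside VCAM1-negative and read 0.676, 6.37 and 2.38 RPKM inside. Myh2 passed against middle-aged (1.44 ± 0.41, adjusted p = 0.0412) and not against VCAM1-high (1.56 ± 0.39, adjusted p = 0.0695). Myh7, the slow heavy chain, stayed under the filter, with 0.0370 to 0.115 RPKM outside VCAM1-negative and 0.568, 0.758 and 1.94 inside. The heavy chains are close paralogs, so reads could be split between them.

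Myosin light chains sit on the neck of the myosin head. Mylpf, the fast regulatory light chain, read 30.2, 286 and 234 RPKM in the VCAM1-negative libraries, against 8.84, 6.89 and 12.0 in the middle-aged, 2.45, 6.71 and 6.41 in the VCAM1-high and 4.24 and 7.69 in the VCAM1-low ones. Myl1, the fast essential light chain, read 33.1, 271 and 347 RPKM in the VCAM1-negative libraries, against 14.7, 13.5 and 20.2 in the middle-aged, 2.04, 4.41 and 7.43 in the VCAM1-high and 1.61 and 4.97 in the VCAM1-low ones. The VCAM1-negative libraries lay above all others in both. In Myl1 the middle-aged libraries also lay above all 5 libraries of VCAM1-high and VCAM1-low. Mylpf differed by 4.46 ± 0.43 (adjusted p = 0.00708) from VCAM1-high and by 3.68 ± 0.69 (adjusted p = 0.0110) from middle-aged, and Myl1 by 4.84 ± 0.39 (adjusted p = 0.00449) and 3.13 ± 0.74 (adjusted p = 0.0230). The slow light chains were low: Myl2 read at most 1.19 RPKM outside VCAM1-negative and 1.26, 4.88 and 5.25 RPKM inside, and Myl3 at most 1.17 outside and 1.83, 4.92 and 5.07 inside. Both passed, Myl2 with 1.56 ± 0.27 (adjusted p = 0.0293) and Myl3 with 1.88 ± 0.22 (adjusted p = 0.0126) against VCAM1-high. Exons of Myl2 and Myl3 overlap those of Ccdc63 and Pth1r on the opposite strand.

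Myosin-binding protein C stiffens and regulates the thick filament. Mybpc2, its fast form, read 7.24, 50.9 and 54.3 RPKM in the VCAM1-negative libraries, against 1.02, 1.21 and 1.51 in the middle-aged, 1.02, 0.932 and 1.35 in the VCAM1-high and 0.652 and 2.07 in the VCAM1-low ones. Mybpc1, its slow form, read 16.3, 53.5 and 38.2 RPKM in the VCAM1-negative libraries, against 20.3, 18.4 and 12.8 in the middle-aged, 26.5, 18.1 and 32.4 in the VCAM1-high and 16.0 and 12.4 in the VCAM1-low ones. Mybpc2 separated VCAM1-negative from all other libraries, and Mybpc1 did not, since replicate 1 lay inside the range of the others. Mybpc2 differed by 3.78 ± 0.47 (adjusted p = 0.0140) from VCAM1-high and by 3.68 ± 0.58 (adjusted p = 0.00681) from middle-aged. Mybpc1 did not pass, with 0.36 ± 0.38 (adjusted p = 0.608) and 0.90 ± 0.38 (adjusted p = 0.121).

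At the Z-disc, Tcap, the cap that links titin ends at the Z-disc, read 35.1, 503 and 182 RPKM in the VCAM1-negative libraries, against 5.97, 7.80 and 15.2 in the middle-aged, 5.75, 10.7 and 7.73 in the VCAM1-high and 8.80 and 16.2 in the VCAM1-low ones. Myot, which encodes the actin-bundling myotilin, read 22.5, 226 and 63.9 RPKM in the VCAM1-negative libraries, against 1.46, 1.84 and 3.86 in the middle-aged, 1.42, 2.20 and 1.66 in the VCAM1-high and 1.65 and 3.95 in the VCAM1-low ones. All VCAM1-negative values lay above all others in both, and replicate 2 was the highest. Tcap differed by 4.08 ± 0.53 (adjusted p = 0.0153) from VCAM1-high and by 3.90 ± 0.74 (adjusted p = 0.0112) from middle-aged. Myot differed by 4.68 ± 0.47 (adjusted p = 0.00749) and 4.44 ± 0.63 (adjusted p = 0.00432), the largest difference from middle-aged among the 38 genes.

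The alpha-actinins crosslink actin at the Z-disc. Actn2, the form of all fibers, read 10.9, 163 and 33.7 RPKM in the VCAM1-negative libraries, against 2.55, 2.36 and 2.62 in the middle-aged, 3.97, 3.74 and 2.75 in the VCAM1-high and 4.71 and 5.75 in the VCAM1-low ones. Actn3, the form of fast fibers, read 50.3, 199 and 251 RPKM in the VCAM1-negative libraries, against 38.3, 64.9 and 87.0 in the middle-aged, 29.6, 29.2 and 69.4 in the VCAM1-high and 23.2 and 23.7 in the VCAM1-low ones. Actn2 separated VCAM1-negative from the rest, while Actn3 was present in every library and its VCAM1-negative replicate 1 fell between middle-aged replicates 1 and 2. Actn2 differed by 3.20 ± 0.65 (adjusted p = 0.0423) from VCAM1-high and by 3.54 ± 0.68 (adjusted p = 0.0118) from middle-aged. Actn3 passed against VCAM1-high (1.77 ± 0.35, adjusted p = 0.0407) and not against middle-aged (1.17 ± 0.55, adjusted p = 0.160).

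Myozenins bind alpha-actinin and calcineurin at the Z-disc. Myoz1, of fast fibers, read 17.0, 122 and 126 RPKM in the VCAM1-negative libraries, against 2.34, 3.85 and 6.72 in the middle-aged, 1.04, 1.27 and 1.95 in the VCAM1-high and 1.43 and 2.60 in the VCAM1-low ones. Myoz2, of slow fibers and heart, read 4.68, 52.4 and 9.13 RPKM in the VCAM1-negative libraries, against 0.307, 0.194 and 0.376 in the middle-aged, 0.347, 1.57 and 0.407 in the VCAM1-high and 0.241 and 1.08 in the VCAM1-low ones. The VCAM1-negative libraries exceeded all others in both, and replicates 2 and 3 were nearly equal for Myoz1 and far apart for Myoz2. Myoz1 differed by 4.77 ± 0.47 (adjusted p = 0.00708) from VCAM1-high and by 3.71 ± 0.63 (adjusted p = 0.00850) from middle-aged, and Myoz2 by 3.1 ± 0.44 (adjusted p = 0.0178) and 3.49 ± 0.64 (adjusted p = 0.0104). Ldb3, a Z-disc adaptor, ran from 0.0644 to 0.721 RPKM outside VCAM1-negative and read 1.76, 13.4 and 10.2 inside, and rose by 2.55 ± 0.43 (adjusted p = 0.0273) over VCAM1-high. Xirp2, an actin-binding repeat protein, was at most 0.113 RPKM outside and 0.249, 3.03 and 2.22 inside, and passed against middle-aged (1.24 ± 0.35, adjusted p = 0.0408) and not against VCAM1-high (1.22 ± 0.35, adjusted p = 0.0923). Ttn, the titin spring that spans the sarcomere from Z-disc to M-line, stayed under 1 RPKM in every library, with 0.171, 0.827 and 0.763 in VCAM1-negative.

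Des, which encodes the desmin filaments that link neighbouring Z-discs, read 426, 683 and 765 RPKM in the VCAM1-negative libraries, against 568, 435 and 534 in the middle-aged, 488, 439 and 696 in the VCAM1-high and 462 and 436 in the VCAM1-low ones. All groups overlapped. Its difference was 0.19 ± 0.17 (adjusted p = 0.539) from VCAM1-high and 0.25 ± 0.25 (adjusted p = 0.500) from middle-aged, and its level spanned 1.80-fold from the lowest to the highest of the 11 libraries, whereas Acta1 spanned 198-fold.

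Among the calcium-handling genes, Atp2a1, the fast-fiber pump that returns calcium to the sarcoplasmic reticulum, read 64.8, 694 and 406 RPKM in the VCAM1-negative libraries, against 44.1, 20.2 and 36.2 in the middle-aged, 9.42, 15.5 and 29.7 in the VCAM1-high and 7.10 and 19.5 in the VCAM1-low ones. The VCAM1-negative libraries lay above all others, with replicate 1 closest to middle-aged replicate 1. It differed by 3.93 ± 0.44 (adjusted p = 0.0113) from VCAM1-high and by 3.01 ± 0.75 (adjusted p = 0.0281) from middle-aged. Exons of Atp2a1 overlap those of Rabep2 on the opposite strand.

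Pvalb, the calcium buffer parvalbumin of fast fibers, read 5.67, 28.3 and 227 RPKM in the VCAM1-negative libraries, against 5.90, 7.96 and 14.8 in the middle-aged, 1.20, 0.602 and 2.79 in the VCAM1-high and 0.823 and 1.21 in the VCAM1-low ones. VCAM1-negative replicate 3 was the highest by a wide margin, and replicate 1 lay below all middle-aged libraries but above VCAM1-high. Pvalb passed against VCAM1-high (3.90 ± 0.66, adjusted p = 0.0278) and not against middle-aged (1.84 ± 0.95, adjusted p = 0.195). Casq1, the calcium-storing calsequestrin, read 2.31, 23.1 and 54.9 RPKM in the VCAM1-negative libraries, against 4.40, 3.35 and 4.29 in the middle-aged, 1.04, 0.615 and 1.79 in the VCAM1-high and 0.668 and 0.819 in the VCAM1-low ones. It had the same order, with replicate 1 under the middle-aged libraries and above VCAM1-high. Casq1 passed against VCAM1-high (2.97 ± 0.64, adjusted p = 0.0473) and not against middle-aged (1.72 ± 0.75, adjusted p = 0.136).

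The proteins that couple the membrane signal to calcium release were low. Cacna1s, the voltage sensor of the fiber membrane, was listed at 0 in VCAM1-low replicate 1, ran up to 0.175 RPKM in the other libraries outside VCAM1-negative and read 0.253, 2.38 and 2.82 inside. Trdn, which anchors calsequestrin to the release channel, ran from 0.160 to 0.413 RPKM outside and read 0.914, 12.4 and 4.86 inside. Both lay higher in all VCAM1-negative libraries. Cacna1s rose by 1.19 ± 0.35 (adjusted p = 0.0444) over middle-aged and Trdn by 2.04 ± 0.51 (adjusted p = 0.0287), and neither passed against VCAM1-high (1.23 ± 0.33, adjusted p = 0.0790 and 2.11 ± 0.50 (adjusted p = 0.0604)). Ryr1, the calcium release channel itself, ran from 0.364 to 2.14 RPKM over all 11 libraries, with overlapping groups. Its difference was 0.15 ± 0.24 (adjusted p = 0.745) from VCAM1-high and -0.22 ± 0.28 (adjusted p = 0.609) from middle-aged.

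Among the metabolic genes, Ckm, the muscle creatine kinase that buffers ATP, read 62.7, 479 and 597 RPKM in the VCAM1-negative libraries, against 10.4, 15.0 and 43.9 in the middle-aged, 5.30, 7.54 and 17.8 in the VCAM1-high and 5.70 and 16.4 in the VCAM1-low ones. Pgam2, the muscle phosphoglycerate mutase of glycolysis, read 10.5, 67.9 and 107 RPKM in the VCAM1-negative libraries, against 5.46, 3.51 and 7.14 in the middle-aged, 1.16, 1.45 and 1.71 in the VCAM1-high and 1.38 and 2.15 in the VCAM1-low ones. Both were higher in each VCAM1-negative library than in any other, and replicate 3 was the highest. Ckm differed by 4.71 ± 0.39 (adjusted p = 0.00458) from VCAM1-high and by 3.71 ± 0.81 (adjusted p = 0.0186) from middle-aged, and Pgam2 by 4.18 ± 0.50 (adjusted p = 0.0133) and 2.83 ± 0.63 (adjusted p = 0.0197).

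Mb, the oxygen-binding myoglobin, read 7.10, 71.5 and 71.1 RPKM in the VCAM1-negative libraries, against 7.44, 4.29 and 11.1 in the middle-aged, 1.23, 1.21 and 2.46 in the VCAM1-high and 0.307 and 2.28 in the VCAM1-low ones. Eno3, the muscle enolase, read 22.5, 181 and 277 RPKM in the VCAM1-negative libraries, against 21.2, 12.3 and 18.5 in the middle-aged, 6.41, 10.0 and 52.7 in the VCAM1-high and 7.57 and 8.65 in the VCAM1-low ones. Replicate 1 of VCAM1-negative lay among the middle-aged values for Mb and just above them for Eno3, and VCAM1-high replicate 3 exceeded it for Eno3. Mb passed against VCAM1-high (3.76 ± 0.51, adjusted p = 0.0170) and not against middle-aged (2.1 ± 0.73, adjusted p = 0.0740). Eno3 likewise passed with 2.69 ± 0.47 (adjusted p = 0.0289) and did not with 2.56 ± 0.86 (adjusted p = 0.0682). Exons of Mb overlap those of Apol6 on the opposite strand.

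Pygm, the glycogen phosphorylase of muscle, read 20.8, 92.3 and 118 RPKM in the VCAM1-negative libraries, against 55.2, 28.6 and 42.03 in the middle-aged, 19.9, 7.83 and 27.1 in the VCAM1-high and 14.7 and 6.99 in the VCAM1-low ones. Middle-aged libraries stood above all 5 VCAM1-high and VCAM1-low libraries and above VCAM1-negative replicate 1. Pygm did not pass, with 1.85 ± 0.56 (adjusted p = 0.110) from VCAM1-high and 0.59 ± 0.61 (adjusted p = 0.526) from middle-aged. Ampd1, the muscle AMP deaminase, ran from 0.0594 to 1.12 RPKM outside VCAM1-negative and read 0.983, 4.26 and 8.43 inside, and passed against VCAM1-high (1.96 ± 0.32, adjusted p = 0.0259) and not against middle-aged (1.41 ± 0.45, adjusted p = 0.0570).

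The roles contributed unequally to the gap between gates. The summed level of VCAM1-negative minus that of VCAM1-high with the same number was 751 RPKM for number 1, 9677 for number 2 and 7277 for number 3. Thin-filament genes made up 65.7%, 60.8% and 56.9% of it, and Acta1 alone 34.4%, 30.9% and 30.2%. Metabolic genes made up 12.1%, 8.97% and 14.8%, thick-filament genes 8.98%, 7.29% and 10.2%, calcium-handling genes 8.24%, 7.69% and 9.07%, and Z-disc and elastic genes 5.06%, 15.3% and 9.13%. Des, counted among the Z-disc genes, was lower in VCAM1-negative for number 1 and contributed -8.24%, 2.53% and 0.952%. As a share of the members' RPKM without Des, thin-filament genes held 56.6% to 62.1% in VCAM1-negative and 44.3% to 54.4% in the other 8 libraries. Metabolic genes held 9.23% to 15.3% in VCAM1-negative and 9.91% to 20.7% elsewhere, and calcium-handling genes 7.08% to 9.05% and 4.88% to 11.4%, so both of these overlapped.

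Levels per length were lowest for the members with the longest transcripts. The 16 members whose longest GENCODE transcript is up to 2 kb had a median VCAM1-negative mean of 87.7 RPKM, the 20 of 2 to 7 kb had 38.3, and the 4 longer ones (Xirp2, Ryr1, Neb and Ttn) had 1.57, with none above 3.52 RPKM. The sources used here do not give the lengths by which the authors divided.

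In their sums, fast isoforms outweighed slow ones by more in the VCAM1-negative libraries than in any other. Outside VCAM1-negative the slow sum was mostly Tnnt1 (4.68 to 24.0 RPKM) and Mybpc1 (12.4 to 32.4 RPKM), which passed in neither comparison. Each other slow member read at most 1.83 RPKM there. The 13 fast-fiber members summed to 4.07, 4.63 and 7.11 times the 7 slow-fiber members in the middle-aged libraries, to 1.81, 3.31 and 3.31 times in VCAM1-high, to 2.66 and 5.79 times in VCAM1-low, and to 11.6, 29.4 and 36.5 times in VCAM1-negative. On the log2 scale they averaged 4.53 ± 0.88 (SD, n = 3), against 2.35 ± 0.42 in middle-aged (n = 3), 1.44 ± 0.50 in VCAM1-high (n = 3) and 1.97 ± 0.79 in VCAM1-low (n = 2). Among the slow genes tested, 4 of 6 rose against VCAM1-high with the block and 4 of 6 against middle-aged, as did 12 of 13 and 10 of 13 of the fast genes, where 0.908% and 7.06% of all genes rose. The slow genes that rose were Tnnc1, Myl2, Myl3 and Myoz2, and only Myoz2 passed the filter without the VCAM1-negative libraries. Among the fast genes, Myh2 passed it only with them.

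The ratio differed from pair to pair. Tnnt3 over Tnnt1, the fast and slow troponin T, was 14.8, 131 and 40.1 in VCAM1-negative and between 1.21 and 7.21 in the other 8 libraries. Mybpc2 over Mybpc1 was 0.444, 0.951 and 1.42 in VCAM1-negative and between 0.0385 and 0.167 elsewhere. These pairs, whose slow genes make up most of the slow sum outside VCAM1-negative, did not overlap between VCAM1-negative and the rest. The essential and regulatory light chain pairs did overlap. The fast to slow ratio of the heavy chains, Myh4 over Myh7, overlapped in all groups, with 12.5, 36.4 and 42.7 in VCAM1-negative and 8.41 to 41.3 elsewhere. For troponin C, Tnnc2 over Tnnc1 was 20.7, 67.2 and 77.2 in VCAM1-negative, 28.9, 60.9 and 49.2 in middle-aged and 6.44 to 22.0 in the other geriatric libraries. In 2 pairs the VCAM1-negative ratio was on average lower than in middle-aged cells by more than 1 on the log2 scale. VCAM1-high and VCAM1-low also averaged below middle-aged in both pairs. Actn3 of fast fibers over Actn2 of all fibers was 4.61, 1.22 and 7.46 in VCAM1-negative and 15.0, 27.5 and 33.1 in middle-aged, with no overlap between these groups. Myoz1 over Myoz2 was 3.62, 2.33 and 13.8 in VCAM1-negative and 7.62, 19.8 and 17.9 in middle-aged, which overlapped. The mean log2 ratio of the alpha-actinins was 4.58 in middle-aged, 3.51 in VCAM1-high, 2.17 in VCAM1-low and 1.80 in VCAM1-negative. For the myozenins it was 3.80, 1.18, 1.92 and 2.29 in the same order.

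**Figure D4:**
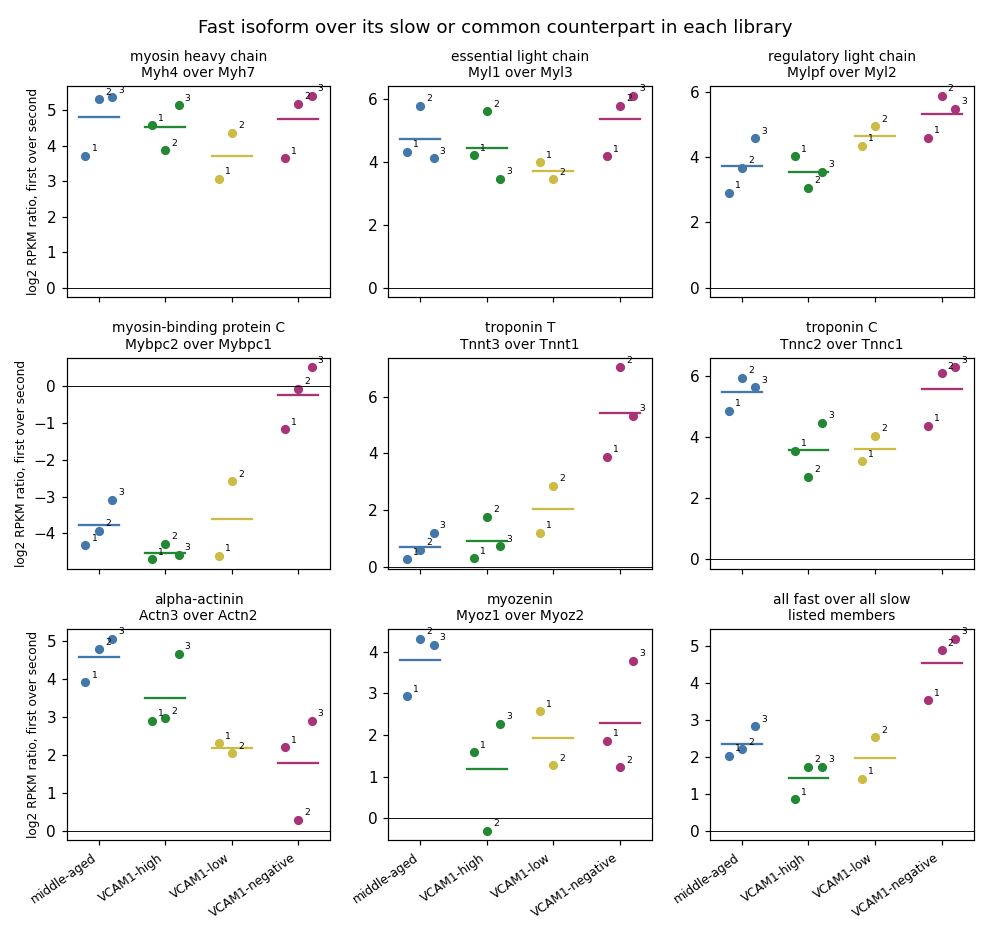
Log2 ratio of a fast isoform to its slow counterpart (for alpha-actinin, to Actn2 of all fibers) in each library, for 8 protein pairs and for the summed lists, with points numbered by replicate and a line at each group's mean. VCAM1-negative libraries lie above all others for troponin T, myosin-binding protein C and the summed lists. For alpha-actinin they lie below middle-aged libraries, as do the VCAM1-low ones.

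VCAM1-negative replicates 2 and 3, the libraries with the highest sums, differed from each other by gene. Of the 40 genes, 20 were higher in replicate 3 and 20 in replicate 2, and the median ratio of replicate 3 to 2 was 1.01. Myoz2 (0.174), Actn2 (0.206), Myot (0.283) and Tcap (0.363) had the lowest of these ratios, and all encode Z-disc proteins. Pvalb (8.02), Myh4 (3.0), Myh7 (2.56) and Casq1 (2.38) had the highest. Replicate 3 was higher in 5 of 6 metabolic genes and in 2 of 8 thin-filament genes, with median ratios of 1.40 and 0.699. With 1 library each, these ratios have no replicate check.

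**Figure D5:**
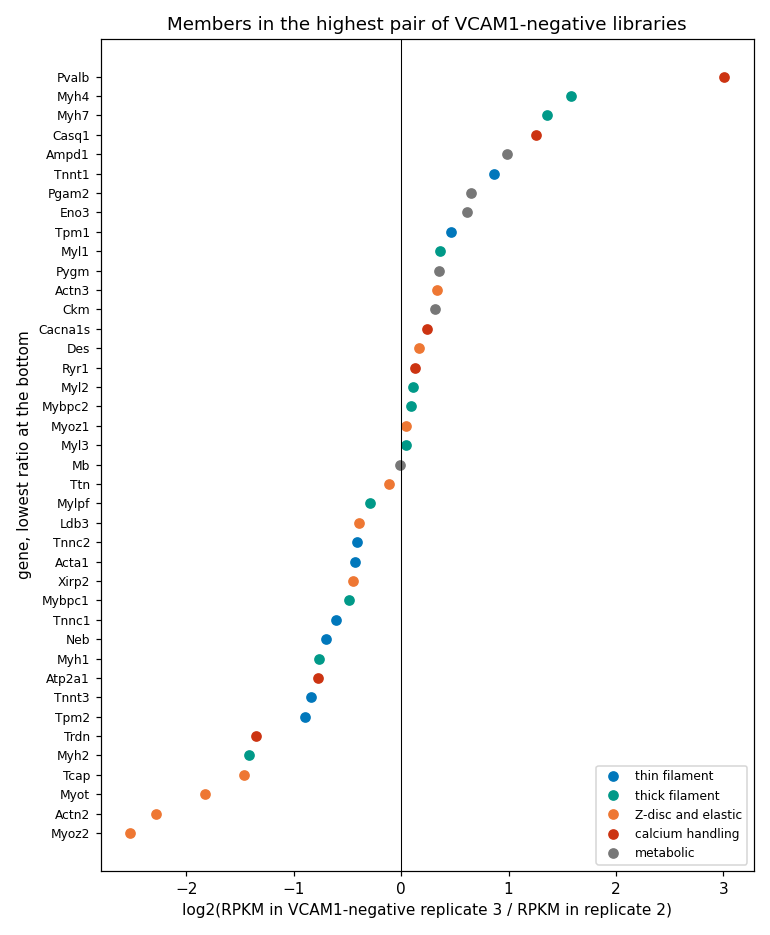
Log2 ratio of VCAM1-negative replicate 3 to replicate 2 for each of the 40 genes, coloured by role and sorted by value. The 4 lowest points, Myoz2, Actn2, Myot and Tcap, are Z-disc genes, and Pvalb and Myh4 are the highest.

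Between VCAM1-high and middle-aged cells, 30 of the 38 tested genes had the lower mean in VCAM1-high, while 6297 of all 11568 genes had the higher mean there. No member passed, 0 of 38, in the limma model without a block, where 0.475% of all genes rose and 0.13% fell. Among the 38, 4 had an unadjusted p under 0.05, as did 1724 of all 11568 genes, and the median difference was -0.25 against 0.04 over all genes. Deviations of same-numbered libraries of these groups from their group means correlated at 0.211, 0.332 and 0.554. Middle-aged replicate 2 and VCAM1-high replicate 1, of different numbers, correlated at 0.331, so only number 3 stood out. With the replicate block over 11 libraries Tnnt1 fell by 1.04 ± 0.22 (SE, adjusted p = 0.0310), while 2.81% of all genes fell and 4.17% rose. Without VCAM1-negative replicate 1 this blocked count of falls was 9. All 3 VCAM1-high libraries lay below all 3 middle-aged libraries in 11 of the 38 tested genes, against 6.36% of all genes: Mylpf, Myl1, Tnnt3, Tnnc2, Tnnt1, Myoz1, Pvalb, Casq1, Pygm, Pgam2 and Mb. Only Actn2 lay above in all 3, against 13.8% of all genes.

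Between VCAM1-low, with 2 libraries, and VCAM1-high, none of the 38 passed by limma (0% of all genes passed, 0 of the 38 and 337 of all genes had an unadjusted p under 0.05), and the median difference was -0.08 against -0.09 over all genes. Mybpc1 (-0.79 ± 0.42) and Tnnt1 (-0.70 ± 0.36) were the furthest from 0 relative to their standard errors. Against middle-aged, Tnnt1 fell by 1.74 ± 0.36 (SE, adjusted p = 0.0337) as the single member called, while 1.88% of all genes fell and 2.22% rose. That call was lost without each middle-aged library, without each VCAM1-low library and without VCAM1-high replicate 1. Both VCAM1-low libraries lay below all middle-aged libraries in 16 of the 38 genes, against 24.9% of all genes.

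VCAM1-negative against VCAM1-low gave 0 of 38 calls by limma (0% of all genes, lowest adjusted p of a member 0.184), with 36 of the 38 and 217 of all genes at an unadjusted p under 0.05. The median difference was 3.06, and with the replicate block no member passed either. Without VCAM1-negative replicate 1 the count was 35. Each VCAM1-negative library lay above both VCAM1-low libraries in 36 of the 38 genes, against 5.77% of all genes, with Ryr1 and Des the exceptions. Across all groups, the VCAM1-negative libraries lay above all 8 other libraries in 25 of the 38, against 1.09% of all genes. Those 25 include Tnnc1, Myl2, Myl3, Myh2, Xirp2, Ldb3, Cacna1s and Trdn, which passed the filter only with the VCAM1-negative libraries.

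Some muscle fiber genes outside the members also rose in VCAM1-negative cells. Of 50 further genes of the fiber, chosen from textbook knowledge, 42 were tested, 11 of them through the filter only with the VCAM1-negative libraries. Against middle-aged, 19 of the 42 rose and 1 fell (Sgca, a membrane glycoprotein), where 7.06% of all genes rose and 7.38% fell, and over the other 31 genes 10 rose. Against VCAM1-high, none passed without a block. With the block 13 of the 42 rose and none fell, where 0.908% of all genes rose and 3.26% fell, and over the other 31 genes 9 rose. Their median difference from VCAM1-high was 1.36, against 2.87 for the members. Smpx, a small muscle protein, read 3.80, 33.2 and 15.6 RPKM in VCAM1-negative and at most 1.11 elsewhere. Tmod4, which caps thin filaments at their pointed ends, read 3.64, 22.6 and 27.5 RPKM and at most 1.64 elsewhere.

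The profile over the 11 libraries most like the median of the 38 members belonged to Rpl3l, a ribosomal protein gene of muscle, with a mean absolute distance of 0.167 on the centred log2 scale. Apobec2 (0.185), Abra (0.241), Trim54 (0.258) and Smpx (0.261) followed, and the next were Lrrc30, Hjv, Adssl1, Smtnl1, Tmod4, Ppp1r27 and 2310002L09Rik. Over all other genes the median distance was 1.06. Among the members, Ldb3 was the closest (0.120) and the median was 0.587. Rpl3l read 1.31, 8.35 and 9.51 RPKM in VCAM1-negative and at most 0.419 elsewhere.

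Among genes of the earlier steps of muscle differentiation, Myf6 had the order of the members and Myod1 and Myog had others. Myf6, a late muscle transcription factor, read 3.77, 31.3 and 11 RPKM in VCAM1-negative and 1.76 to 2.50 elsewhere. Myod1, which commits cells to muscle, read 664, 622 and 725 RPKM in VCAM1-negative, against 618 and 653 in VCAM1-low, 395, 618 and 338 in VCAM1-high, and 189, 231 and 135 in middle-aged. VCAM1-negative lay above every VCAM1-high library for Myod1 by a small margin, and it rose over middle-aged by 1.88 ± 0.25 (SE, adjusted p = 0.00344). Myog, the factor that starts terminal differentiation and was named after its values were seen, read 19.7, 11.9 and 57.0 RPKM in the VCAM1-negative libraries, against 390.3, 8.57 and 6.31 in the middle-aged, 4.63, 11.6 and 59.6 in the VCAM1-high and 5.86 and 3.98 in the VCAM1-low ones. Its highest value was in middle-aged replicate 1, where Acta1 was 79.2 RPKM. Of 14 tested genes of commitment and fusion, 3 rose (Mef2c, Actc1 and Tnnt2) and 2 fell (Myf5 and Cdh15) against VCAM1-high with the block, where 0.908% of all genes rose and 3.26% fell. Against middle-aged 2 rose, Myod1 and Myf6, where 7.06% of all genes rose. Actc1, Tnnt2, Myf5 and Cdh15 were named after their values were seen.

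Markers of other cell types moved between libraries within groups. The summed level of 11 endothelial markers ran from 16.8 to 226 RPKM in middle-aged, from 15.5 to 81.3 in VCAM1-high, from 39.9 to 66.2 in VCAM1-low and from 35.7 to 104 in VCAM1-negative. The 12 macrophage and neutrophil markers ran from 5.39 to 137 RPKM in middle-aged, from 4.11 to 884 in VCAM1-high, from 41.3 to 58.2 in VCAM1-low and from 77.1 to 222 in VCAM1-negative, and none of the 12 was at 0 in a VCAM1-negative library. The 5 erythroid markers in the table ran from 5.77 to 165 RPKM in middle-aged, from 14.0 to 488 in VCAM1-high, from 524 to 650.5 in VCAM1-low and from 194 to 650.4 in VCAM1-negative. No marker of the endothelial, macrophage and neutrophil, or erythroid lists passed against either group, and none of the Schwann cell or cardiac lists did. Markers of other lists passed against middle-aged. Among 4 tested adipocyte markers, Cfd rose by 6.40 ± 0.74 (adjusted p = 0.00217) and Adipoq by 2.74 ± 0.58 (adjusted p = 0.0165), and neither passed against VCAM1-high. The 5 adipocyte markers summed to 6.25 to 202 RPKM in middle-aged, 34.4 to 375 in VCAM1-high, 53.5 to 113 in VCAM1-low and 73.2 to 261 in VCAM1-negative. Cfd read at most 0.0723 RPKM in the middle-aged libraries and 21.6 to 293 in the 8 geriatric ones. Of 10 fibro-adipogenic markers, Dpt and Col3a1 fell against middle-aged and, with the block, against VCAM1-high, and Dcn rose against middle-aged. Scx, 1 of 5 tenocyte markers, rose against middle-aged, and Tagln, 1 of 8 tested smooth muscle and pericyte markers, fell. Dcn and Tagln, and Calcr of the next list, were named after their values were seen. The part of these cells in the members' levels was not tested. The 15 muscle stem cell markers summed to 2189, 1450 and 2250 RPKM in VCAM1-negative, 2255 and 1909 in VCAM1-low, 3040, 2055 and 2831 in VCAM1-high and 2439, 3353 and 3768 in middle-aged. Of the 15, 3 fell against VCAM1-high with the block (Vcam1, Ncam1 and Itga7), where 3.26% of all genes fell. These 3 and Calcr fell against middle-aged, where 7.38% of all genes fell. The gates were sorted on surface VCAM1, so the fall of Vcam1 in both counts is tied to the sort. VCAM1-negative replicate 2, with the highest sum of fiber genes, had the lowest sum of the 15 markers. Replicate 2 also had the lowest marker sum within VCAM1-high (2055 RPKM) and within VCAM1-low (1909 RPKM). Replicates 1 and 3 of VCAM1-negative had like marker sums while their fiber gene sums were 1479 and 8467 RPKM. A link between marker sums and fiber gene sums was not tested.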

How the data were processed

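The authors deposited 1 table of RPKM values for 20640 gene symbols in 11 libraries, and every column was matched to a sample. Per the submitters' processing notes, STAR 2.7.5b, Bowtie2 2.1.0, SAMtools 0.1.19, cutadapt 3.1 and build GRCm39 were used. The sources used here do not state the step of each tool, the counting tool, its strand setting or the gene lengths. Per the labels' protocols, the low-input SMART-Seq v4 kit amplified the RNA and sequencing was paired-end. RPKM are not counts, so log2(RPKM + 1) was fitted with limma 3.58.1 (R 4.3.3), with 4 group means over all 11 libraries, a variance trend, and Benjamini-Hochberg adjustment over the 11568 genes that reached 1 RPKM in 2 or more libraries. A gene was called at adjusted p under 0.05. Errors are standard errors of the fit or standard deviations between libraries. Depth was estimated with Python 3.11.15 from low values of 3428 genes with a single transcript, of which 63.5% to 73.1% were whole reads to within 0.1 (chance gives 20%). It is an estimate, as the lengths used are GENCODE's.

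The members and lists were chosen with earlier results of these data known. All members are named, with a value in every library where a group mean reached 10 RPKM. Outside the members, Vcam1, Pax7, the 12 closest profiles and up to 4 genes of each other list by smallest p were eligible to be named. The pairing of libraries by replicate number comes from the data and not from the labels: same-numbered VCAM1-high and VCAM1-negative libraries had correlations of deviations from the group mean of 0.414, 0.581 and 0.403, and middle-aged and VCAM1-high 0.211, 0.332 and 0.554. Middle-aged replicate 2 and VCAM1-high replicate 1, of different numbers, had a correlation of 0.331. Between same-numbered middle-aged and VCAM1-negative libraries the correlations were -0.025, 0.033 and 0.081, so those numbers did not pair. The script was tested on simulated data. Alternatives were a pseudocount of 0.1, no filter, a mean of at least 5 RPKM, median-ratio scaling, an equal sum without the members, replicate blocks, only the 2 groups compared, and leaving out each library. Block fits without each library, and without the number-3 libraries, were added after seeing the data.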

Additional observations from a re-analysis of the deposited data

How the results depend on the processing

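For fits with another pseudocount, filter or scaling, or with only the 2 groups, the share of all genes called is not given. The count of members called in VCAM1-negative against VCAM1-high was 0 without a block. It was 11 with a pseudocount of 0.1, 12 of 27 with a mean of at least 5 RPKM, 10 with median-ratio scaling, 9 with an equal sum outside the members, 19 with a replicate block in 11 libraries and 27 with a replicate block in 8 geriatric libraries. Leaving out each library in turn gave 0 to 34 without a block, 4 to 35 with the block in 8 libraries (4 without VCAM1-high replicate 2, 35 without VCAM1-negative replicate 1, 19 without VCAM1-high replicate 1, 20 without its replicate 3, 9 without either VCAM1-low library, 13 without VCAM1-negative replicate 2 and 20 without its replicate 3), and 0 to 34 with the block in 11 libraries (7, 0 and 0 without VCAM1-high replicates 1, 2 and 3, then 24, 22 and 19 without those of middle-aged, 2 without either VCAM1-low library, and 34, 8 and 13 without VCAM1-negative replicates 1, 2 and 3). Against middle-aged, the count of 26 became 17 without a filter, 17 of 27 with a mean of at least 5 RPKM, 31 with the replicate block (where 14.3% of all genes rose), 4 without the number-3 libraries, and 10 to 34 leaving out each library in turn without the block and 20 to 35 with it. The numbers of middle-aged and VCAM1-negative libraries did not pair, so no pairing between these groups backs the blocked counts of that comparison. VCAM1-high against middle-aged went from 0 to 1 with the replicate block, and ran from 0 to 9 leaving out each library with that block. VCAM1-negative against VCAM1-low went from 0 to 35 leaving out each library, with 35 for the block in 11 and 34 for the block in 8 libraries without VCAM1-negative replicate 1, and 4 without VCAM1-high replicate 1 or, with the block in 11 libraries, without middle-aged replicate 1. VCAM1-low against middle-aged, with 1 call, gave 0 without a filter, 5 with only the 2 groups, and leaving out each library 0 to 3 without the block and 0 to 10 with it. Every call in the comparisons with VCAM1-negative was a rise, and every call between the other groups a fall. Ryr1 against VCAM1-high ranged from -0.055 to 0.46 leaving out each library, negative without VCAM1-high replicate 2 alone. The cause of these changes was not tested. Where 1 library was left of VCAM1-low, it was assumed to vary like the other groups. Over all scalings and comparisons the median of all genes stayed between -0.11 and 0.06. In the other comparisons the replicate block moved no count of calls by over 1.5 times. Groups of 2 or 3 libraries limit the precision, and the depth of each library is known only as an estimate.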
